A study of Rattus norvegicus with 8 samples.

Results

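The subunits of the AMPA and kainate receptors, the main fast excitatory glutamate receptors of the brain, were followed in hippocampal mRNA of vehicle-treated, PTZ-kindled and Q808-treated kindled rats. The set was fixed by gene name and holds 9 genes of the 22601 that were measured, the 4 AMPA receptor subunits *Gria1* to *Gria4* and the 5 kainate receptor subunits *Grik1* to *Grik5*. Each was found once by its NCBI GeneID, and all 9 passed the filter on low values.

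AMPA receptors are tetramers of the subunits GluA1 to GluA4 and carry most of the fast excitatory current at hippocampal synapses. The GluA2 subunit, when its mRNA has been edited at the pore site, makes the channel nearly impermeable to calcium, so the amount of *Gria2* relative to the other subunits is of interest in seizure models. Kainate receptors are built from GluK1 to GluK3, which form channels of their own, and GluK4 and GluK5, which bind glutamate with high affinity but need a partner of the first group, and in the hippocampus they are known from the mossy fibre synapses on CA3 pyramidal cells and from interneurons.

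The tissue came from wild-type Wistar rats, weighing 180 to 220 g when purchased per the methods, with 3 rats in the Con. group, 3 in the PTZ group and 2 in the Q808 group, and 1 library was made per rat. PTZ is an antagonist of the GABA-A receptor that, given repeatedly at low doses, kindles the brain, so that seizures grow stronger from dose to dose. According to the methods, PTZ and Q808 rats received 35 mg/kg PTZ every 48 h over 28 days in 14 injections and 60 mg/kg on the last of these days, while Con. rats received saline. The anticonvulsant Q808 was then given to the Q808 rats by gavage at 30 mg/kg each day for 28 days, and its solvent to the others, after which the PTZ and Q808 groups, but not the Con. group, were given another sub-convulsive dose of PTZ before the hippocampi of both sides were taken. Kindling and this last injection therefore cannot be told apart in these data. Since whole hippocampi were used, fewer cells of a type and less mRNA per cell cannot be told apart either.

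Values are FPKM, fragments scaled by transcript length and by the number of mapped fragments, so that levels of different genes can be compared per length, and depth and counting error are unknown from them. Across all genes, Spearman correlations between libraries lay between 0.966 and 0.986. However, 3 libraries, 1 of each group, stood apart from the rest. In Con.-3, PTZ-3 and Q808-1 the summed FPKM of 6 striatal neuron markers lay between 712.5 and 1453, against 51.7 to 67.5 in the other 5 libraries. In the same 3 libraries, 5 markers of hippocampal excitatory neurons summed to 463 to 519 FPKM, against 1357 to 1610 in the others, and 8 oligodendrocyte markers summed to 7013 to 13851 FPKM, against 2700.1 to 4484. None of the 9 subunits belongs to these marker lists. The comparisons of the subunits are therefore also given without these 3 libraries. The other 5 libraries were not alike in all tissue markers either, since 6 choroid plexus markers summed to 2534 and 2510 FPKM in Con.-1 and Con.-2, 409 and 277 FPKM in PTZ-1 and PTZ-2 and 6437 FPKM in Q808-2. The part of these markers in the results was not tested.

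*Gria2* had the highest mean level of the 9 subunits, at 116 FPKM over the 8 libraries, followed by *Gria1* at 103 FPKM. *Grik5* and *Gria3* came next with 49.0 and 47.3 FPKM, and *Gria4*, *Grik2* and *Grik4* with 18.6, 15.7 and 13.1 FPKM. *Grik3* and *Grik1* were the lowest at 3.17 and 2.39 FPKM. Of the neighbours in this order, only *Gria3* and *Gria4* had ranges over the 8 libraries that did not overlap, with *Gria3* higher in all 8. *Gria2* exceeded *Gria1* in 5 of 8 libraries, *Grik5* exceeded *Gria3* in 6 of 8 and *Grik3* exceeded *Grik1* in 4 of 8, so these neighbours were not separated beyond their spread. In the 5 libraries with low striatum markers, 3 neighbours changed places, with means of 137 FPKM for *Gria1* and 133 FPKM for *Gria2*, 15.7 FPKM for *Grik4* and 14.5 FPKM for *Grik2*, and 2.66 FPKM for *Grik1* and 2.18 FPKM for *Grik3*.

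**Figure D1:**
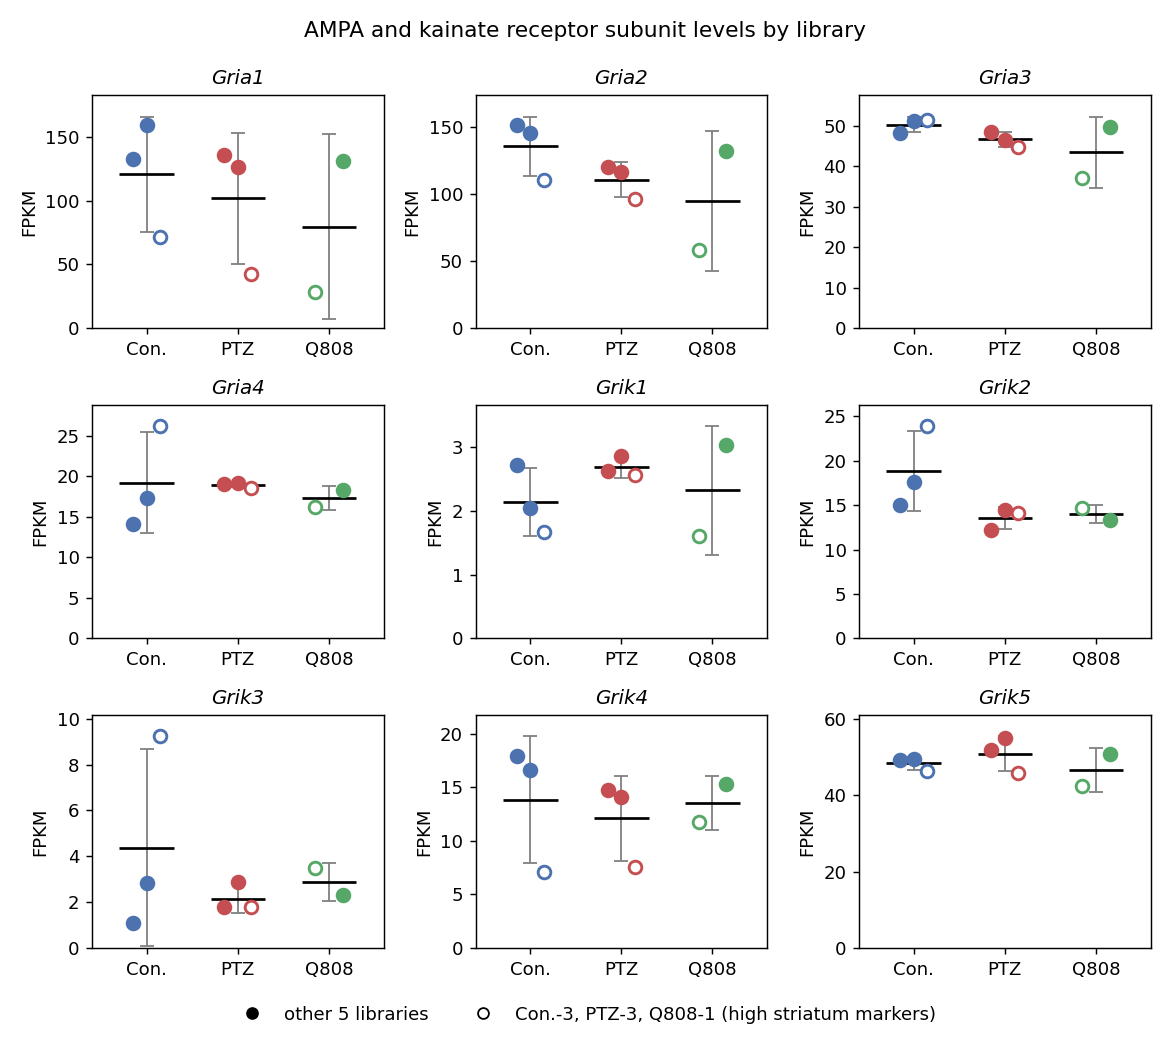
FPKM of each subunit (vertical axis, starting at 0) in the Con., PTZ and Q808 groups, with 1 point per rat, the group mean as a black line and the SD as grey bars. Open points are Con.-3, PTZ-3 and Q808-1, which lie below all filled points for *Gria1*, *Gria2*, *Grik4* and *Grik5*.

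*Gria1* encodes GluA1, the subunit known for its regulated insertion during long-term potentiation. It measured 132, 159 and 71.1 FPKM in Con.-1 to Con.-3, 136, 126 and 42.9 FPKM in PTZ-1 to PTZ-3, and 28.5 and 130.6 FPKM in Q808-1 and Q808-2. Within every group the library with high striatum markers was the lowest, and all 3 groups overlapped. The PTZ group differed from the Con. group by a log2 fold change of -0.34 (95% interval -1.50 to 0.82, limma unadjusted p = 0.512, adjusted p = 0.999). In Q808 against Con. the value was -0.91 (-2.65 to 0.84, limma unadjusted p = 0.247, adjusted p = 0.901). It was 0.19 without Q808-1 and -2.002 without Q808-2, which left Q808-1, a library with high striatum markers, alone in its group. Among the other 5 libraries, *Gria1* differed on the log2 scale by -0.15 between PTZ and Con. and by -0.00367 between Q808 and PTZ.

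*Gria2*, which encodes GluA2, measured 151, 145 and 110 FPKM in the Con. libraries, 120.1, 116 and 95.9 FPKM in the PTZ libraries, and 58.0 and 131.6 FPKM in Q808-1 and Q808-2. Means were 136 ± 21.9 FPKM (SD, n = 3) under vehicle and 111 ± 12.9 FPKM (SD, n = 3) under PTZ, and the groups overlapped through Con.-3. The log2 fold change of PTZ against Con. was -0.29 (standard error 0.17, 95% interval -0.68 to 0.11, limma unadjusted p = 0.128, adjusted p = 0.999). It was negative in all 17 alternative settings, from -0.43 to -0.19, with adjusted p from 0.146 to 1.00. Settings that changed only the filter, the trend, the blocks or the groups fitted together returned the same -0.29, so their sign could not differ. Without Con.-3, PTZ-3 and Q808-1, both Con. libraries lay above both PTZ libraries, the mean was 20.3% lower in the PTZ group, and the log2 fold change was -0.33 (limma unadjusted p = 0.0072, adjusted p = 0.146). In that fit 19.6% of all 15593 genes had an unadjusted p under 0.05, and *Gria2* was the only subunit of the 9 to do so. Q808-2, the remaining Q808 library, lay between both groups. The choroid plexus markers differed between the same 4 Con. and PTZ libraries, as given above, and their part in this value was not tested.

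*Gria3* and *Gria4* encode GluA3 and GluA4, the latter a subunit that is prominent in fast-spiking interneurons. *Gria3* measured 48.3, 51.3 and 51.5 FPKM in the Con. libraries, 48.6, 46.6 and 44.8 FPKM in the PTZ libraries and 37.2 and 49.8 FPKM in Q808-1 and Q808-2. Its log2 fold change was -0.11 in PTZ against Con. (95% interval -0.36 to 0.14), which leaves out a change of 1.5-fold in either direction, and -0.0649 without the 3 libraries with high striatum markers. *Gria4* measured 14.1, 17.3 and 26.2 FPKM in the Con. libraries, 19.0, 19.2 and 18.6 FPKM in the PTZ libraries and 16.2 and 18.3 FPKM in the Q808 libraries. The 3 PTZ libraries thus lay within the range of the Con. group, with a log2 fold change of 0.03 (95% interval -0.51 to 0.56). Con.-3 held the highest value, and without the 3 libraries with high striatum markers both PTZ libraries were above both Con. libraries, by 0.29 (95% interval -0.04 to 0.61, limma unadjusted p = 0.0745, adjusted p = 0.295, between 0.295 and 1 over the 17 alternatives). Both Q808 libraries lay below all PTZ libraries for *Gria4*, by a log2 difference of -0.13 (limma unadjusted p = 0.445, adjusted p = 0.952).

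*Grik2* encodes GluK2, the main channel-forming kainate subunit of hippocampal principal cells. It was the only subunit whose Con. and PTZ libraries did not overlap, with 15.1, 17.6 and 23.9 FPKM in the Con. libraries and 12.2, 14.4 and 14.1 FPKM in the PTZ libraries. This was 1 of 9 subunits, against 9.15% of all genes tested whose Con. and PTZ libraries did not overlap. Means were 13.6 ± 1.23 FPKM (SD, n = 3) under PTZ and 18.8 ± 4.54 FPKM (SD, n = 3) under vehicle, which gave -0.45 on the log2 scale (standard error 0.19, 95% interval -0.91 to 0.01, limma unadjusted p = 0.0550, adjusted p = 0.999). The direction was kept in all 17 alternative settings, between -0.59 and -0.26 (adjusted p from 0.315 to 1.00), and the value was past both limits in 1 of them, without Con.-1. As the groups did not overlap, leaving out libraries could not change this sign. Settings that changed only the filter, the trend, the blocks or the groups fitted together returned the same -0.45. The kept direction is therefore not a separate check. With the replicate number as a block, a pairing chosen from these data, *Gria2* and *Grik2* had limma unadjusted p of 0.0421 and 0.0284. In that fit 6.3% of all genes were under 0.05, and neither subunit was called. Q808-1 and Q808-2, at 14.7 and 13.3 FPKM, were also below all Con. libraries, by -0.40 (95% interval -0.97 to 0.17, limma unadjusted p = 0.133, adjusted p = 0.901), and differed from the PTZ group by 0.05 (95% interval -0.40 to 0.49). Con.-3 held the highest value, and without the 3 libraries with high striatum markers the change of PTZ against Con. was -0.29.

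*Grik1* and *Grik3* encode GluK1, which in the hippocampus is known mainly from interneurons, and GluK3, a subunit of low glutamate affinity. *Grik1* measured 2.72, 2.04 and 1.66 FPKM in the Con. libraries, 2.62, 2.87 and 2.56 FPKM in the PTZ libraries and 1.61 and 3.03 FPKM in Q808-1 and Q808-2. PTZ against Con. gave a log2 fold change of 0.34 (95% interval -0.26 to 0.94, limma unadjusted p = 0.225, adjusted p = 0.999), with overlapping groups, and 0.21 without the 3 libraries. *Grik3* varied most of the 9, by a factor of 8.52 between its lowest and highest library, with 1.08, 2.83 and 9.24 FPKM in the Con. libraries, 1.77, 2.89 and 1.80 FPKM in the PTZ libraries and 3.48 and 2.30 FPKM in the Q808 libraries. Con.-3 alone set the sign of its difference, which was -0.54 in PTZ against Con. (95% interval -2.19 to 1.12) and 0.24 without that library, or 0.34 without all 3.

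*Grik4* and *Grik5* encode the high-affinity subunits GluK4, known from CA3 pyramidal cells, and GluK5. *Grik4* measured 17.9, 16.6 and 7.06 FPKM in the Con. libraries, 14.7, 14.1 and 7.57 FPKM in the PTZ libraries and 11.8 and 15.3 FPKM in Q808-1 and Q808-2. The lowest library of each group was the one with high striatum markers, and the log2 fold change of PTZ against Con. was -0.14 (95% interval -1.12 to 0.84), or -0.26 without these 3 libraries. *Grik5* varied least of the 9 over all 8 libraries, although *Gria3* did so within the 5 with low striatum markers, at 49.2, 49.7 and 46.5 FPKM in the Con. libraries, 52.0, 54.97 and 46.0 FPKM in the PTZ libraries and 42.6 and 50.8 FPKM in the Q808 libraries. Its log2 fold change was 0.07 in PTZ against Con. (95% interval -0.21 to 0.35) and -0.06 in Q808 against Con. (95% interval -0.42 to 0.30), intervals that hold no change of 1.5-fold, and 0.11 and 0.0393 without the 3 libraries.

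The RefSeq promoter table of the GRCr8 assembly holds a window for 6 of the 9 genes, and the 250 bases before the listed start are shown for 3 of them, *Grik2*, whose Con. and PTZ libraries did not overlap, and *Grik3* and *Grik4*, which differed most between libraries among these 6. Capitals mark matches to TGACG or its reverse CGTCA, the half-site of the cAMP response element through which CREB links activity to transcription, and to the GC box GGGCGG or its reverse CCGCCC, which Sp1 binds. The GRCr8 positions are chr20:54415284-54415533 on the minus strand for *Grik2*, chr5:143052192-143052441 on the plus strand for *Grik3* and chr8:52102064-52102313 on the minus strand for *Grik4*.
Grik2: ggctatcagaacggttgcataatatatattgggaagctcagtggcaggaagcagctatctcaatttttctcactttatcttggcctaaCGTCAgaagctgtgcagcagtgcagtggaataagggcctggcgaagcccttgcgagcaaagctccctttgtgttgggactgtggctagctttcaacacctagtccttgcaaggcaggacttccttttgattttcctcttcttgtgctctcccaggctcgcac
Grik3: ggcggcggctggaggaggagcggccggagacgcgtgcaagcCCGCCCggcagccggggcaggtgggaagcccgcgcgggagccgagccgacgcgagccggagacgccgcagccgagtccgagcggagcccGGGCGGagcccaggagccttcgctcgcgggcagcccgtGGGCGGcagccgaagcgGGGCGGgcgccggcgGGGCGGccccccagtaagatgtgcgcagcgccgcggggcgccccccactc
Grik4: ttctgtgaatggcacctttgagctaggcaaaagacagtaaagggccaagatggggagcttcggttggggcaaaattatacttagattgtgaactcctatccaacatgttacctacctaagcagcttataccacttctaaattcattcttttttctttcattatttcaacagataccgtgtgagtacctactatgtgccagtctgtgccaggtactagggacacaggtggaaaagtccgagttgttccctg
*Grik2* was the only one of the 6 with a half-site, at base -162 counted from the start, where 18.2% of all 33469 windows of the same length hold one. The *Grik3* window was rich in G and C (81.6%, against a median of 51.2% over all windows) and held 5 matches to the GC box, *Grik5* held 1, and 30.5% of all windows hold at least 1. The *Grik4* window had 43.2% G and C and neither motif. None of the 6 held the full element TGACGTCA (1.59% of all windows), TATAAA (12.9%) or the AP-1 site TGAGTCA (4.05%), all searched on both strands, and the half-site is part of the full element. A match describes these letters only.

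Across the 9 subunits, none was called in any of the 3 comparisons, where a call needed a limma unadjusted p under 0.05 and more than 1.5-fold change, and none had an unadjusted p under 0.05, which 3.78% of all genes had in PTZ against Con., while 2.19% had it in Q808 against PTZ and 4.28% in Q808 against Con. Among all 15593 genes tested, 2.53% were called in PTZ against Con., 1.92% in Q808 against PTZ and 3.46% in Q808 against Con. In PTZ against Con., 6 subunits were lower and 3 higher, with a median log2 fold change of -0.14 and a range of -0.54 to 0.34, against a median of -0.04 over all genes. In Q808 against PTZ, 6 were lower and 3 higher, with a median of -0.13, against 0.10 over all genes. In Q808 against Con., 7 were lower and 2 higher, with a median of -0.12, against 0.04. These comparisons share libraries, so their directions are not independent of each other. Groups did not overlap for *Gria4* in Q808 against PTZ, 1 of 9 subunits against 15.6% of all genes, and for *Grik2* in Q808 against Con., 1 of 9 against 20% of all genes.

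Without Con.-3, PTZ-3 and Q808-1, again none of the 9 was called, while 9.82%, 10.4% and 4.53% of all genes were called in the 3 comparisons in the same order, and *Gria2* in PTZ against Con. was the only value with a limma unadjusted p under 0.05, where 19.6%, 15.2% and 5.9% of all genes had one. With 2 Con., 2 PTZ and 1 Q808 library the lone Q808 library was assumed to vary like the others. The medians of the subunits were then -0.06 for the PTZ comparison with Con., 0.02 for Q808 with PTZ and -0.000494 in Q808 against Con. Both Con. libraries were apart from both PTZ libraries for 5 of the 9, lower under PTZ for *Gria2*, *Grik2* and *Grik4* and higher for *Gria4* and *Grik5*, where 54.1% of all genes were apart. Of the 9 directions, 8 were kept in PTZ against Con., with *Grik3* the exception, 6 in Q808 against PTZ and 5 in Q808 against Con. When all libraries were kept and the division into 3 and 5 libraries entered the fit as a block, *Grik2* had a limma unadjusted p of 0.0170 in PTZ against Con. (log2 fold change -0.45, adjusted p = 0.566), where 7.8% of all genes had one under 0.05 and 4.31% were called. In the same fit of Q808 against Con., *Gria1* was called as lower, at -0.65 (limma unadjusted p = 0.0260, adjusted p = 0.620), in a setting that calls 4.86% of all genes, and *Gria2* and *Grik2* joined it under an unadjusted p of 0.05, as 7.93% of all genes did. The *Gria1* difference was -1.32 between Q808-1 and Con.-3 but -0.15 between Q808-2 and the other Con. libraries, so its size rests largely on Q808-1. In Q808 against PTZ that fit called none of the 9 and none had an unadjusted p under 0.05, where 4.58% of all genes were called and 7.8% passed the unadjusted limit.

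For the Q808 group the single subunits moved as follows when the 3 libraries were left out, each 95% interval including 0 in both fits. Against the PTZ group, the log2 fold change went from -0.33 to 0.16 for *Gria2*, from -0.12 to 0.0644 for *Gria3*, from -0.13 to -0.0581 for *Gria4*, from -0.26 to 0.14 for *Grik1*, from 0.42 to 0.0232 for *Grik3*, from 0.21 to 0.0874 for *Grik4* and from -0.13 to -0.0734 for *Grik5*, and for *Grik2* it was 0.046 and 0.00366. Against the Con. group, it went from -0.62 to -0.17 for *Gria2*, from -0.11 to 0.23 for *Gria4*, from 0.0738 to 0.35 for *Grik1*, from -0.40 to -0.29 for *Grik2*, from -0.12 to 0.37 for *Grik3* and from 0.0666 to -0.17 for *Grik4*, and for *Gria1* and *Gria3* it was -0.15 and -0.000494 without the 3. All values that rest on Q808-2 alone have no replicate of their own.

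**Figure D2:**
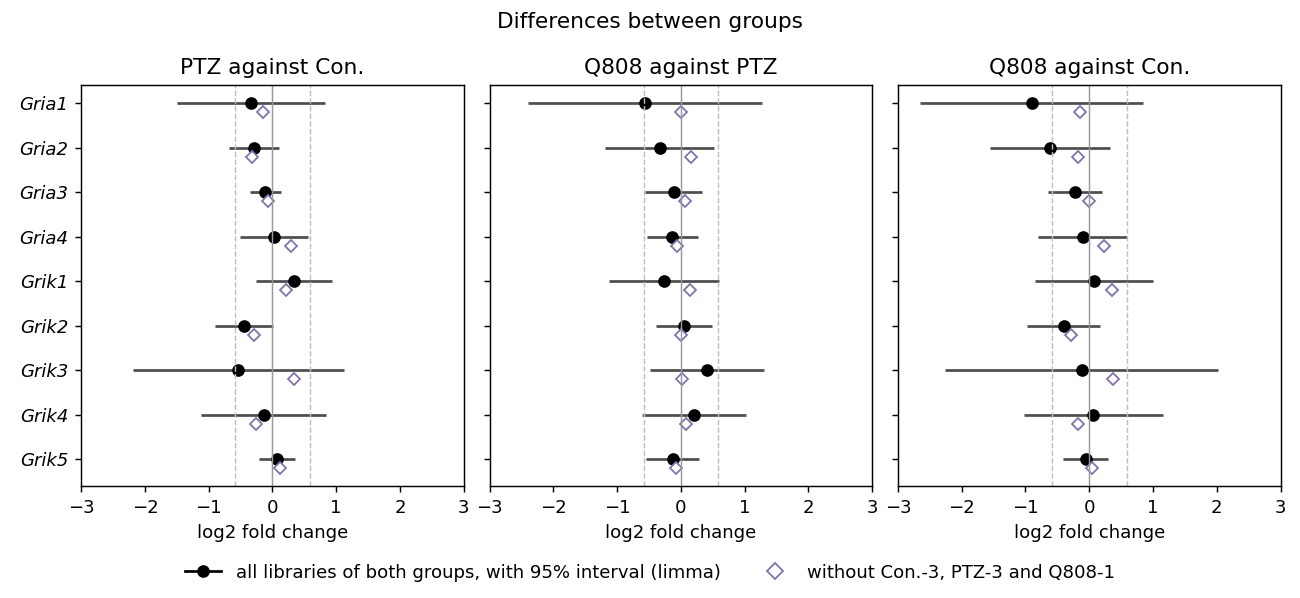
Log2 fold change of each subunit (horizontal axis) in the 3 comparisons, with filled points for all libraries of both groups, bars for the 95% interval from limma and dashed lines at 1.5-fold. Every interval includes 0, and the open diamonds, which leave out Con.-3, PTZ-3 and Q808-1, lie between -0.33 and 0.37.

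For several subunits the 3 libraries with high striatum markers were apart from the other 5. *Gria1* lay at 28.5 to 71.1 FPKM in Con.-3, PTZ-3 and Q808-1 and at 126 to 159 FPKM in the other 5, a log2 difference of -1.62. *Grik4* lay at 7.06 to 11.8 FPKM against 14.1 to 17.9 FPKM, a log2 difference of -0.86. *Gria2* ranged from 58.0 to 110 FPKM against 116 to 151 FPKM, a log2 difference of -0.63. For *Grik5* the ranges of 42.6 to 46.5 and 49.2 to 54.97 FPKM were also apart, although by only -0.19 on the log2 scale. The sets did not overlap for these 4 of 9 subunits, where 24.8% of all genes tested did not overlap, and they overlapped for *Gria3*, *Gria4*, *Grik1*, *Grik2* and *Grik3*. As the 3 libraries were set apart by their striatum markers, these values are a description without a test. *Gria4*, *Grik2* and *Grik3* were each highest in Con.-3, the library with the highest striatum markers. *Gria4* and *Grik2* were not raised alike in PTZ-3 and Q808-1. *Grik3* in Q808-1, at 3.48 FPKM, was above the 1.08 to 2.89 FPKM of the 5 libraries, while PTZ-3, at 1.80 FPKM, lay within that range.

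Within the other 5 libraries the median coefficient of variation of the subunits was 11.5%, against 13.7% for all genes with a mean of at least 1 FPKM. The coefficient of variation was 9.39% for *Gria1*, 11.5% for *Gria2*, 3.61% for *Gria3* and 11.8% for *Gria4*, and it was 14.3%, 14.1%, 34.9%, 9.71% and 4.50% for *Grik1* to *Grik5*. Over all 8 libraries it rose to 47.1% for *Gria1* and 80.8% for *Grik3*, and the median of the 9 was 23.4%, against 20.2% for all genes with a mean of at least 1 FPKM.

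**Figure D3:**
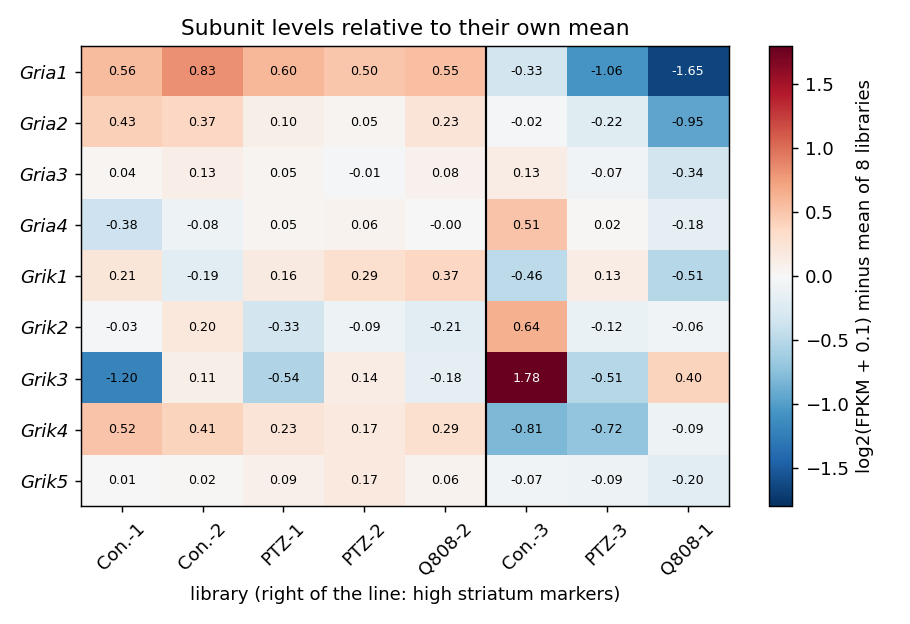
Colours and numbers give log2(FPKM + 0.1) of each subunit (rows) in each library (columns) minus its mean over the 8 libraries, and the line parts the 3 libraries with high striatum markers from the other 5. *Gria1* spans -1.65 in Q808-1 to 0.83 in Con.-2, and *Grik3* spans -1.20 in Con.-1 to 1.78 in Con.-3.

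The relative amounts of the subunits were compared within each library, since FPKM are per length. Summed AMPA subunits reached 308 to 373 FPKM in the 5 libraries with low striatum markers and 140.01 to 259 FPKM in the other 3, whereas summed kainate subunits were 83.2 to 89.3 FPKM and 72.01 to 88.3 FPKM. The ratio of kainate to AMPA FPKM was 0.249, 0.238 and 0.341 in the Con. libraries, 0.257, 0.290 and 0.356 in the PTZ libraries and 0.530 and 0.257 in Q808-1 and Q808-2. It was highest in each group in the library with high striatum markers. The difference between PTZ and Con. was 0.0253 (two-sided exact permutation test, p = 0.5), where 0.1 is the smallest p that 3 libraries against 3 or 2 allow. Q808 differed from PTZ by 0.0920 (exact permutation p = 0.7) and from Con. by 0.117 (exact permutation p = 0.4). Without the 3 libraries these differences were 0.0302, -0.0171 and 0.0132. Taken within replicate numbers, the ratio was higher under PTZ in 3 of 3 pairs (two-sided exact sign-flip permutation test, p = 0.25, the smallest that 3 pairs allow), a test chosen after seeing the data. Adjusted values are not given, because no share can pass at this number of rats.

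*Gria2* made up 43.7%, 38.9% and 42.6% of the summed AMPA subunit FPKM in the Con. libraries, 37.1%, 37.6% and 47.4% in the PTZ libraries and 41.5% and 39.8% in the Q808 libraries. The mean was 41.7% ± 2.50 (SD, n = 3) in the Con. group, 40.7% ± 5.80 (SD, n = 3) in the PTZ group and 40.7% ± 1.14 (SD, n = 2) in the Q808 group, and no difference exceeded the spread between rats. PTZ differed from Con. by -1.02 percentage points, Q808 from PTZ by -0.0733 and Q808 from Con. by -1.09 (two-sided exact permutation tests, p = 0.8, 1 and 0.6). Without the 3 libraries the differences were -3.93, 2.46 and -1.47 percentage points, and both Con. libraries (43.7% and 38.9%) lay above both PTZ libraries (37.1% and 37.6%). Between these same libraries 54.1% of all genes were apart in their FPKM, and how often shares lie apart was not worked out. Within replicate numbers the share was higher under PTZ in 1 of 3 pairs (exact sign-flip permutation p = 0.75). The share of *Gria1* ranged from 38.2% to 42.7% in the 5 libraries with low striatum markers and from 20.3% to 27.4% in the others, while *Gria3* (13.8% to 15.1% against 19.9% to 26.6%) and *Gria4* (4.08% to 6.23% against 9.21% to 11.6%) had larger shares in the latter. The *Gria2* share differed less between these sets, with 37.1% to 43.7% and 41.5% to 47.4%.

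*Grik4* and *Grik5* together made up 78.0%, 74.7% and 60.6% of the summed kainate subunit FPKM in the Con. libraries, 80.1%, 77.4% and 74.3% in the PTZ libraries and 73.3% and 78.0% in the Q808 libraries. The means were 71.1% ± 9.24 (SD, n = 3), 77.3% ± 2.89 (SD, n = 3) and 75.7% ± 3.33 (SD, n = 2). PTZ differed from Con. by 6.15 percentage points, Q808 from PTZ by -1.61 and Q808 from Con. by 4.55 (two-sided exact permutation tests, p = 0.5, 0.6 and 0.9). The differences from Con. exceeded the SD of the PTZ or Q808 group but not that of the Con. group, where Con.-3 was lowest. Within replicate numbers the share was higher under PTZ in 3 of 3 pairs (two-sided exact sign-flip permutation p = 0.25, the smallest possible). Without the 3 libraries the differences were 2.38 percentage points for PTZ minus Con., -0.727 for Q808 minus PTZ and 1.65 for Q808 minus Con. *Grik5* alone, singled out after its values were seen and therefore not tested, took 52.6% to 57.2% in the Con. group, 61.6% to 63.8% in the PTZ group and 57.5% to 59.9% in the Q808 group. The 3 ranges did not overlap, whereas the *Grik2* share, 17.5% to 27.0% in the Con. group and 14.6% to 19.6% in the PTZ group, did. *Grik5* FPKM itself overlapped between the 3 groups, at 46.5 to 49.7 in Con., 46.0 to 54.97 in PTZ and 42.6 to 50.8 in Q808. How often shares of other genes lie apart was not worked out.

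**Figure D4:**
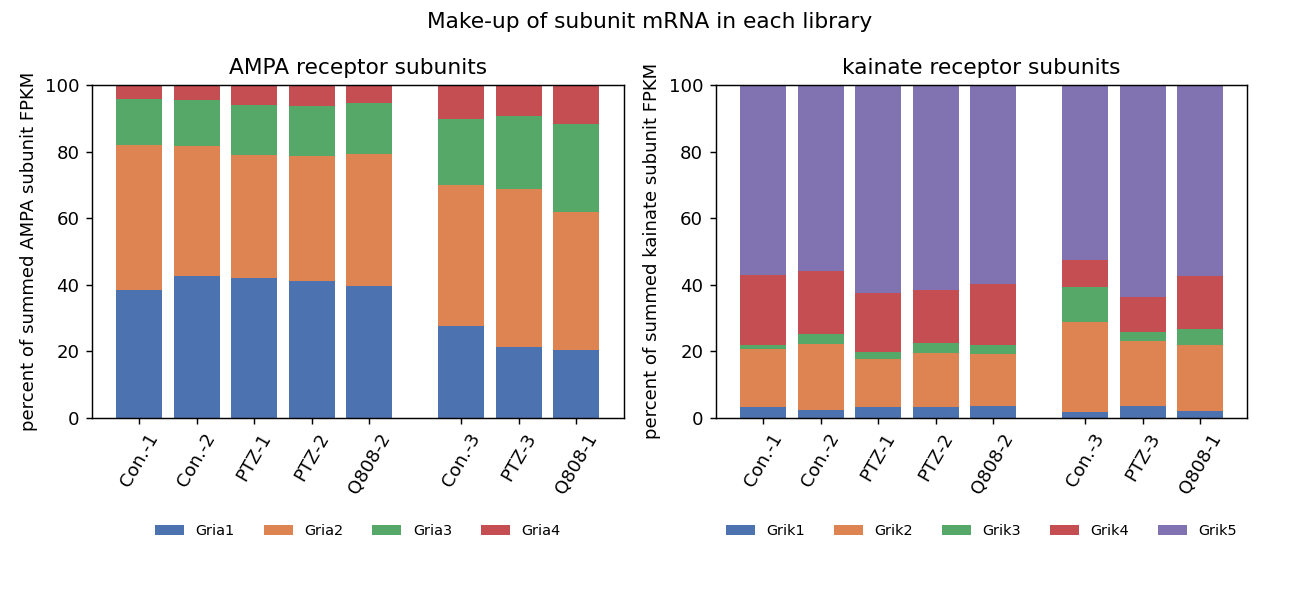
Share of each subunit in the summed FPKM of the AMPA subunits (left) and of the kainate subunits (right) in each library (bars, percent), with the 3 libraries with high striatum markers set apart on the right of each panel. The *Gria1* share falls from at least 38.2% in the 5 libraries to at most 27.4% in the 3.

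The proteins that assemble, anchor and move these receptors were read from lists of genes. Of 15 AMPA receptor auxiliary subunits, 7 kainate receptor auxiliary subunits and partners, 22 scaffold and trafficking genes, 8 tested NMDA and delta receptor subunits and 3 RNA editing enzymes, 55 genes in all, 1 was called as higher and 0 as lower in PTZ against Con. In Q808 against PTZ, 0 were called as higher and 1 as lower, and in Q808 against Con. none was called. The background shares of called genes for these counts were those given above, 2.53%, 1.92% and 3.46%. Without the 3 libraries with high striatum markers, 3 were called as higher and 1 as lower for PTZ minus Con., where 9.82% of all genes were called. For the Q808 comparisons that fit rests on Q808-2 alone, so its counts are left out here. The median log2 fold changes of the 5 lists lay between -0.14 and -0.04 for PTZ minus Con. (all genes -0.04), between -0.34 and 0.03 for Q808 minus PTZ (all genes 0.10) and between -0.32 and -0.09 for Q808 minus Con. (all genes 0.04).

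The gene called as higher was *Nptx2*, a secreted neuronal pentraxin that is induced by activity and clusters AMPA receptors at synapses. It measured 21.2, 20.4 and 20.6 FPKM in the Con. libraries, 231, 348 and 21.1 FPKM in the PTZ libraries and 22.9 and 22.0 FPKM in the Q808 libraries. PTZ-1 and PTZ-2 thus stood far above all others, while PTZ-3 lay within 1 FPKM of the Con. libraries, and the groups overlapped. The log2 fold change of PTZ against Con. was 2.52 (standard error 0.95, limma unadjusted p = 0.0329, adjusted p = 0.999), and without the 3 libraries with high striatum markers it was 3.76 (limma adjusted p = 0.00658), with adjusted p from 0.00658 to 1.00 over the 17 alternatives, 11 of which called it. In Q808 against PTZ it was -2.41 (limma unadjusted p = 0.0758, adjusted p = 0.952) and not called. Without the 3 libraries it was -3.68, a value that rests on Q808-2 alone. Of 16 alternatives 5 called it, this fit among them. The gene called as lower in Q808 against PTZ was *Cacng3*, which encodes the AMPA receptor auxiliary subunit TARP gamma-3. It measured 60.3, 74.3 and 67.8 FPKM in the PTZ libraries, 34.7 and 45.2 FPKM in the Q808 libraries and 38.6, 42.8 and 80.5 FPKM in the Con. libraries. The log2 fold change of Q808 against PTZ was -0.76 (standard error 0.19, limma unadjusted p = 0.00677, adjusted p = 0.952), and it was called in 14 of 16 alternatives. Without the 3 libraries it was -0.56, short of the 1.5-fold limit and resting on Q808-2 alone. In PTZ against Con. *Cacng3* changed by 0.40 (limma unadjusted p = 0.195, adjusted p = 0.999) and was not called. Without the 3 libraries that change was called at 0.72 (limma unadjusted p = 0.00167, adjusted p = 0.0848), as 9.82% of all genes were. Of 17 alternatives 2 called it.

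The RNA editing enzymes that recode AMPA and kainate receptor transcripts were not called in any comparison. *Adarb1*, which encodes ADAR2, the enzyme that edits the pore site of GluA2, measured 29.3, 31.5 and 27.5 FPKM in the Con. libraries, 28.8, 29.9 and 25.0 FPKM in the PTZ libraries and 41.6 and 29.5 FPKM in Q808-1 and Q808-2. Its level in Q808-1 was above all others, and its log2 fold change in PTZ against Con. was -0.08. *Adar* lay between 18.2 and 25.7 FPKM and *Adarb2* between 3.39 and 4.97 FPKM. The FPKM per gene pool edited with unedited and flip with flop transcripts, so neither form was measured here.

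All 9 subunits carry the pathway Glutamatergic synapse in the annotation deposited with the values, as do 1.46% of the 7679 genes with a pathway, and only the 4 AMPA subunits among them carry Dopaminergic synapse and Retrograde endocannabinoid signaling. *Gria1* and *Gria2* alone of the 9 carry Long-term potentiation.

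The gene outside the set whose levels ran closest to those of each subunit was found among 12554 genes by the root mean square difference of centred log2 levels over the 8 libraries. For *Gria2* it was *Dlg3*, which encodes the synaptic scaffold SAP102, with a difference of 0.0596, and *Dlg3* measured 18.3 to 44.8 FPKM. For *Gria3* it was *Vps35* (0.0359), which encodes a retromer subunit of endosomal sorting, and for *Grik5* it was *Dlst* (0.0379), a subunit of the mitochondrial oxoglutarate dehydrogenase complex. *Gria1* was closest to *Iqgap2* (0.145), *Gria4* to *Myh10* (0.0743), *Grik1* to *Uhrf1* (0.143), *Grik2* to *Lrba* (0.0929), *Grik3* to *Znrf3* (0.240) and *Grik4* to *Chst7* (0.0938). These are likenesses over libraries that differ in the mix of cells, with no test.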

How the data were processed

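Hippocampal poly(A)-selected RNA of 8 rats was sequenced, with 1 library per rat. Per the methods, reads were cleaned with Trimmomatic and the deposited FPKM were computed by the authors with Cufflinks, and the labels also list HISAT2, Bowtie2, StringTie, SAMtools, HTSeq and DESeq with no role. The aligner's part, the genome build and the versions are not given in the sources used here, and the authors' read counts were not used here. FPKM carry no depth, so only the spread between rats shows the precision. FPKM per gene depend on the gene models used and on how Cufflinks weighted transcripts.

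Genes were matched by NCBI GeneID, and the RefSeq table of GRCr8 gave symbols for 20633 of 22601 genes. Tests used log2(FPKM + 0.1) of the 15593 genes whose mean FPKM reached 0.1, a scale that understates changes of low genes, with limma 3.58.1 in R 4.3.3 (empirical Bayes with a trend, two-sided), each comparison on its own 2 groups. Calls needed an unadjusted p under 0.05, as in the study's methods, with over 1.5-fold change, and p-values were adjusted by Benjamini-Hochberg over all genes tested. Differences of mean shares were given a two-sided exact permutation test in Python 3.11.15 with scipy 1.17.1, numpy 2.4.6, pandas 2.3.3 and matplotlib 3.10.9. 

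The 9 subunits, the lists, the named genes (all subunits, list genes that were called, the editing enzymes and the closest gene to each subunit) and the division into 3 and 5 libraries were chosen with earlier results of these data known. Of the marker genes, Man1a was not among the genes measured. The alternatives were other pseudocounts (1 and 0.01), filters, samples, scalings, no trend, blocks, any fold and each library left out. The replicate numbers of the labels pair libraries of different rats. Deviations from the group means correlated across 12563 genes by 0.309, 0.392 and 0.472 for the numbers 1 to 3 of Con. and PTZ, although Con.-2 and PTZ-1 reached 0.452. Number 3 joins Con.-3 and PTZ-3, both with high striatum markers. The numbers were taken as pairs there from these same values, and the labels do not say that rats were matched. Values that use the pairs are therefore a description. For Q808 only 2 numbers are shared, and Q808-1 correlated by -0.463 with Con.-1 and -0.439 with PTZ-1, while Q808-2 correlated by 0.661 with Con.-2 and 0.416 with PTZ-2. With only 2 Q808 libraries, their deviations from the group mean are mirror images. Q808-2 thus correlated by 0.463 with Con.-1 and Q808-1 by -0.661 with Con.-2, so the values of Q808-1 and Q808-2 are not separate.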

Additional observations from a re-analysis of the deposited data

How the results depend on the processing

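The count of subunits called, 0 in each comparison, became 1 for Q808 against Con. with the striatum marker set as a block (*Gria1*), where 4.86% of all genes were called. It became 1 for PTZ against Con. without Con.-1 (*Grik2*), where 339 of 15593 genes were called. Without Q808-2 the Q808 group rests on Q808-1 alone, a library with high striatum markers, so only effect sizes are given. The log2 fold changes were then -0.92 for *Gria2* in Q808 against PTZ, and -2.002 for *Gria1* and -1.21 for *Gria2* in Q808 against Con. Apart from these settings, the counts stayed at 0. With the replicate number as a block, a pairing chosen from these data that drops the third library where Q808 is compared, no call changed. *Gria2* (log2 fold change -0.29, limma unadjusted p = 0.0421) and *Grik2* (-0.45, limma unadjusted p = 0.0284) then passed the unadjusted limit in PTZ against Con., where 6.3% of all genes did. Of the log2 fold changes, 280 values under the other alternatives kept their direction and side of the limits, and 16 changed sign, the cause of which was not tested. Several of these alternatives, such as the filters and the fit without a trend, cannot change the sign, so the 280 are not separate checks. Where 1 Q808 library was left, it was assumed to vary like the others. The paper reports the amount of clean data per sample, but the FPKM carry no read counts, so what depth limits was not worked out.

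Without Con.-3, PTZ-3 and Q808-1 the log2 fold change turned to 0.34 for *Grik3* in PTZ against Con., to 0.16 for *Gria2*, 0.0644 for *Gria3* and 0.14 for *Grik1* in Q808 against PTZ, and to 0.23 for *Gria4*, 0.37 for *Grik3*, -0.17 for *Grik4* and 0.0393 for *Grik5* in Q808 against Con., and in Q808 against PTZ the difference in the *Gria2* share turned to 2.46 percentage points and that of the kainate to AMPA ratio to -0.0171. Under the replicate block, it turned to -0.10 for *Grik4* in Q808 against PTZ and to 0.14 for *Gria4*, -0.0857 for *Grik1*, 0.65 for *Grik3* and -0.36 for *Grik4* in Q808 against Con., with 3.27 percentage points for the *Gria2* share in Q808 against PTZ and -0.701 for the *Grik4* and *Grik5* share in Q808 against Con. Quantile normalization gave -0.00141 for *Grik2* and 0.303 percentage points for the *Gria2* share in Q808 against PTZ and -0.12 for *Grik1* in Q808 against Con., and median ratio scaling gave -0.047 for *Grik2* in Q808 against PTZ.

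When each library was left out in turn, log2 fold changes in PTZ against Con. ranged from -0.68 to 0.20 for *Gria1*, -0.17 to 0.28 for *Gria4*, -0.59 to -0.26 for *Grik2*, -1.25 to 0.24 for *Grik3* and -0.56 to 0.17 for *Grik4*. In Q808 against PTZ they ranged from -1.66 to 0.53 for *Gria1*, -0.92 to 0.26 for *Gria2*, -0.32 to 0.093 for *Gria3*, -0.70 to 0.17 for *Grik1*, -0.0304 to 0.12 for *Grik2* and -0.10 to 0.39 for *Grik4*. In Q808 against Con. they ranged from -2.002 to 0.19 for *Gria1*, -1.21 to -0.03 for *Gria2*, -0.30 to 0.14 for *Gria4*, -0.36 to 0.51 for *Grik1*, -0.84 to 0.65 for *Grik3*, -0.36 to 0.31 for *Grik4* and -0.18 to 0.0685 for *Grik5*. The *Gria2* share difference ranged from -4.36 to 0.773 percentage points in PTZ against Con. and from -1.87 to 3.27 in Q808 against PTZ, and the *Grik4* and *Grik5* share from -3.96 to 0.746 in Q808 against PTZ and from -0.701 to 8.01 in Q808 against Con. The kainate to AMPA ratio difference ranged from -0.0022 to 0.0577 in PTZ against Con., from -0.0446 to 0.229 in Q808 against PTZ and from -0.0193 to 0.254 in Q808 against Con.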
